A study of Mus musculus with 4 samples.

Results

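The 10 genes described here are Trp53, the gene of the mouse p53 protein, and a set of its partners and targets, namely Mdm2, Mdm4, Cdkn1a, Ccng1, Bax, Bbc3, Pmaip1, Phlda3 and Sesn1. They were taken by gene symbol, and all 10 were found among the 33708 rows of the expression table. The tissue was the frontonasal prominence (FNP), the embryonic swelling from which the nose and snout form, dissected from FVB/NJ mouse embryos at E10.5 (29 somites). The 2 genotypes were Smchd1+/+ (WT, 1 female and 1 male embryo) and Smchd1 MommeD43/MommeD43 (MD43, 2 male embryos), where MommeD43 is a chemically induced missense allele of Smchd1 carried by the whole animal. SMCHD1 is a chromatin protein that silences genes. The comparison asked how transcript levels in the developing face differ between the MD43 and the normal protein. The replicate 2 embryos of both genotypes came from 1 mother, per the labels, and the replicate 1 embryos from other mothers.

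p53 is a transcription factor that is kept scarce in unstressed cells, because MDM2 marks it for breakdown and MDM4 masks the part of it that activates genes. DNA damage or faulty ribosome assembly frees p53, which then switches on genes for cell cycle arrest, cell death and repair, and also Mdm2 itself, so that the response limits itself. In the embryonic face, excess p53 activity is known to kill neural crest cells, and the targets listed here are commonly used as a readout of p53 activity.

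Each gene had 1 value per genotype, a log2 RPKM (reads scaled for the length of the transcript and the depth of the library) merged by the authors from the 2 libraries of that genotype. No test between the genotypes could therefore be made, and no spread between embryos stands behind a value. A difference of at least 1.5-fold was taken as the threshold for naming a change. Reads are the geometric mean of the 2 libraries, recovered from the values, and the depth they imply per library was 22328791 reads for MD43 and 16055882 for WT. The error given with a log2 difference (MD43 minus WT) is the smallest standard error that counting of reads allows. It leaves out the variation between embryos. Smchd1 itself had 9.84 RPKM in MD43 and 9.93 in WT, a log2 difference of -0.01 ± 0.02, which does not bear on the missense change.

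p53 recognises a 10-base DNA motif, which works best when present as a pair. The RefSeq promoter windows (GRCm38.p6, from 250 bases before to 50 after each annotated start) were searched for the motif, to show the letters of the kind p53 recognises that lie next to these genes. The motif is its own reverse complement in consensus, so both strands were covered. Of the 9 genes with a window, 6 held it (66.7%), against 9.55% of all 27025 genes with a window. Of 33 further p53 targets with a window, 9 held it (27.3%). These genes were picked as p53 targets, and a gene with several start sites had several windows (14 for the 9 genes), so the shares are a description. Pmaip1 had no window. The stretches are printed 5′ to 3′ on the strand of the gene, with the motif in capitals, and none lay in an annotated exon.
Cdkn1a, chr17:29090894-29090949, plus strand: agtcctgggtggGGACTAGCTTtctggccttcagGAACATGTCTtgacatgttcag
Trp53, chr11:69580272-69580305, plus strand: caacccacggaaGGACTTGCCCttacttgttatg
Mdm2, chr10:117710923-117710956, minus strand: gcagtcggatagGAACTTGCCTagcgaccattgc
Ccng1, chr11:40755450-40755483, minus strand: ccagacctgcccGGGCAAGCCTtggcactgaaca
Bax, chr7:45467078-45467111, minus strand: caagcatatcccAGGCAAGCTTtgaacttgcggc
Sesn1, chr10:41887254-41887287, plus strand: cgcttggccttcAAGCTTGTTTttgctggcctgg
Cdkn1a was the only one of the 9 genes with 2 motifs at most 13 bases apart, an arrangement found in 20 of the 27025 genes (0.0740%). Its motifs spanned 73 to 42 bases before the annotated start site at the upstream end of the gene. Only exact matches were marked, and the 10 bases straight after the later Cdkn1a motif missed it at their leading base alone. The single motif of Trp53 lay 75 to 66 bases before its start site. The Sesn1 stretch lay inside the Sesn1 gene, ahead of an inner start site, and the Bax stretch lay inside an intron of the longer transcript Gm45808. A match of letters is a description and does not show that p53 bound there.

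All 10 genes were expressed in both genotypes, from 4.62 RPKM (Cdkn1a in WT) to 57.8 RPKM (Bax in MD43), and all had more than 100 reads in each genotype. None differed by 1.5-fold. Of the 10757 well-covered genes (those with 100 reads or more in WT and in MD43), 2.35% did. With so low a share, none among 10 genes does not set them apart. The share was 10.7% of the 15377 genes that reached 10 reads in WT or MD43, and 12.2% with no filter. None of the 10 differed by 2-fold, against 4.11% of the 15377 genes. Of the 10 genes, 5 were higher in MD43 and 5 lower, with a median log2 difference of 0.04 and a range of -0.27 to 0.19. Over all well-covered genes the median was 0.01, and 52.8% were higher in MD43. Regardless of sign, the median size of the log2 difference was 0.17 for the 10 genes and 0.12 for the well-covered genes. In a dissected piece of tissue, fewer cells of a type and less RNA per cell cannot be told apart. With no spread over embryos, the order of genes of near equal level could not be tested.

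**Figure D1:**
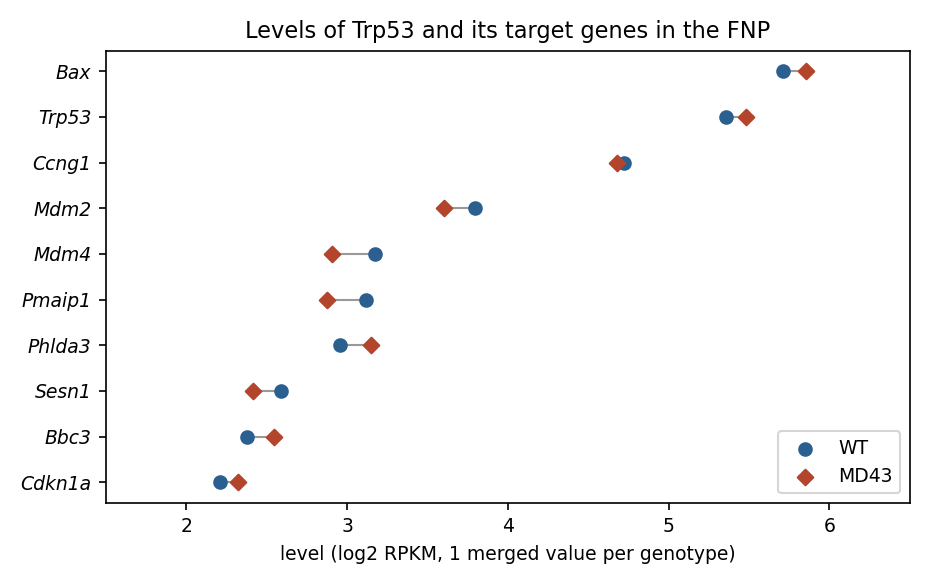
Level of each gene (log2 RPKM, horizontal axis) in WT (blue circles) and MD43 (red diamonds), 1 merged value per genotype, in the order of the WT level. Bax, Trp53, Ccng1 and Mdm2 lead in both genotypes and Cdkn1a is last in both, whereas Phlda3, Mdm4, Pmaip1, Sesn1 and Bbc3 lie close enough that some of them change places.

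Trp53 (ENSMUSG00000059552, GRCm38 chromosome 11, 69580359 to 69591873, plus strand, protein coding) was the second most abundant of the 10 in both genotypes. It had 41.1 RPKM in WT and 44.7 RPKM in MD43, from 2667 and 4036 reads. The log2 difference was 0.12 ± 0.03 (counting SE), or 1.09-fold higher in MD43. Of the 10757 well-covered genes, 50.7% differed by less than this. The amount of Trp53 transcript says little of p53 activity, which is set mainly by protein stability.

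The 2 genes whose products restrain p53 both had lower values in MD43. Mdm2 (ENSMUSG00000020184, chromosome 10, 117688875 to 117710758, minus strand), which encodes the ligase that marks p53 for breakdown and is itself a p53 target, had 13.9 RPKM in WT and 12.2 RPKM in MD43. The log2 difference was -0.19 ± 0.04, or 1.14-fold lower. Mdm4 (ENSMUSG00000054387, chromosome 1, 132959484 to 133030561, minus strand), whose product binds p53 and blocks its activating part, had 9.04 RPKM in WT and 7.50 RPKM in MD43. Its log2 difference of -0.27 ± 0.03, or 1.21-fold lower, was the largest of the 10 in size, and 83.3% of well-covered genes differed by less. Unlike the other genes, Mdm4 had 14798 bases of merged exons, so that its RPKM is spread over a long model and compares poorly with the levels of shorter genes.

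The genes of cell cycle arrest were near equal between the genotypes. Cdkn1a (ENSMUSG00000023067, chromosome 17, 29090976 to 29100727, plus strand), the gene of the cyclin-dependent kinase inhibitor p21 and the best known p53 target, was the lowest of the 10 in both genotypes, at 2.21 log2 RPKM in WT and 2.32 log2 RPKM in MD43. The log2 difference of 0.11 ± 0.08 had a 95% counting interval of -0.04 to 0.27. Ccng1 (ENSMUSG00000020326, chromosome 11, 40748552 to 40755311, minus strand), the gene of cyclin G1, a direct p53 target that feeds back on MDM2, had 26.4 RPKM in WT and 25.6 RPKM in MD43. Its log2 difference of -0.04 ± 0.03 was the smallest of the 10, and it became 0.07 once the effects of GC content and length were fitted and removed. The counting interval of both genes included 0.

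The genes of cell death went both ways. Bax (ENSMUSG00000003873, chromosome 7, 45461697 to 45466898, minus strand), the effector that opens the mitochondrial outer membrane, was the most abundant of the 10, with 52.3 RPKM in WT and 57.8 RPKM in MD43, a log2 difference of 0.14 ± 0.04. Its span shares 915 bases with that of Gm45808 on the same strand, whose log2 difference was 0.29 ± 0.07. Reads of the pair may be mixed where exons overlap, which was not examined. Bbc3 (ENSMUSG00000002083, chromosome 7, 16308393 to 16318205, plus strand), which encodes PUMA, an activator of BAX, had 5.20 RPKM in WT and 5.83 RPKM in MD43, a log2 difference of 0.16 ± 0.10 whose counting interval also included 0. Phlda3 (ENSMUSG00000041801, chromosome 1, 135766119 to 135769136, plus strand), whose product blocks the survival kinase AKT at the membrane, had 7.77 RPKM in WT and 8.86 RPKM in MD43. Its log2 difference of 0.19 ± 0.09 was the largest increase, and it stood 7 in the order of levels in WT and 5 in MD43. Pmaip1 (ENSMUSG00000024521, chromosome 18, plus strand), which encodes NOXA, an inhibitor of the survival protein MCL1, had 8.68 RPKM in WT and 7.34 RPKM in MD43, a log2 difference of -0.24 ± 0.07. The 2 small activators of death, Bbc3 and Pmaip1, thus had values on opposite sides.

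Sesn1 (ENSMUSG00000038332, chromosome 10, 41809935 to 41908424, plus strand) encodes sestrin 1, a stress protein that restrains the growth kinase mTORC1. It had 6.02 RPKM in WT and 5.34 RPKM in MD43, a log2 difference of -0.17 ± 0.07. In the order of levels it stood 8 in WT and 9 in MD43, having changed places with Bbc3. It overlaps 9930024M15Rik on the same strand, which had no reads.

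**Figure D2:**
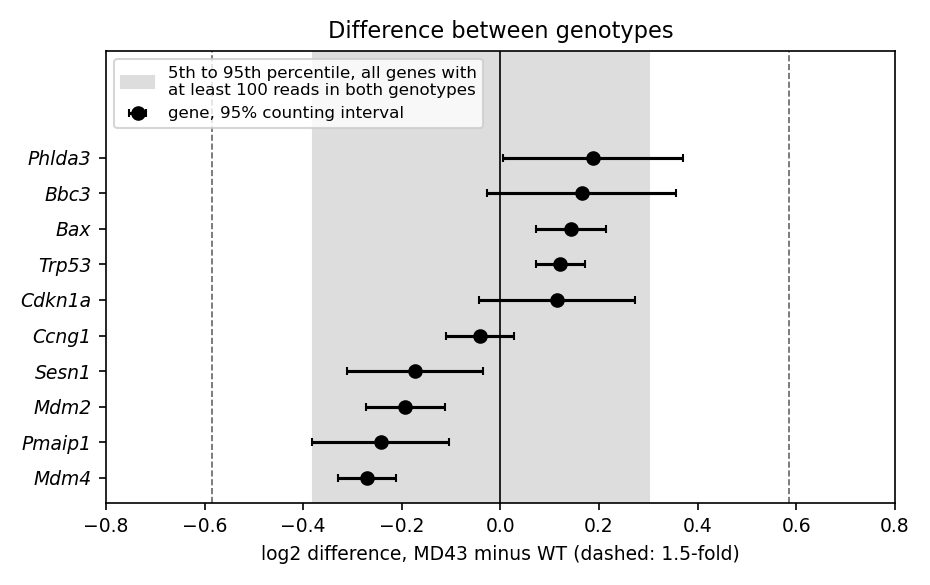
Log2 difference between MD43 and WT for each gene (horizontal axis) with the 95% interval that counting of reads allows at least, and without variation between embryos. The shaded band is the range from -0.38 to 0.30 that holds the central 90% of the 10757 well-covered genes, and the dashed lines mark 1.5-fold. The points of all 10 genes lie within the band, 5 on each side of 0.

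The reads of the single libraries could be traced for 5 of the 10 genes, as pairs of raw counts. Where the product of the 2 read counts of a genotype is a whole number small enough to be read exactly, only few pairs of whole numbers can give it. Pairs in which 1 library had up to 3 times the reads of the other were considered. Which embryo a count belongs to is not known, and the counts are raw, so that part of their ratio is the depth of the libraries and part is counting error. Over genes with a single possible pair, the median ratio of the larger to the smaller count was 1.49 in MD43 (1409 genes) and 1.37 in WT (1646 genes), and 95% of genes had a ratio of at most 1.97 in MD43 and at most 2.20 in WT.

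Phlda3 had 131 and 289 reads in the 2 WT libraries, a ratio of 2.21 that exceeded that of 95.1% of the WT genes with a single pair. In the MD43 libraries it had 229 and 415 reads, a ratio of 1.81 that exceeded 88.8%. Phlda3 was thus in the upper part of the range in both genotypes. Pmaip1 had 229 and 633 reads in the WT libraries, a ratio of 2.76 that exceeded 98.9%. Past the limit of 3, another pair with a ratio of 3.26 was possible. In MD43 it allowed 3 pairs, 292 and 686, 343 and 584, or 392 and 511 reads, with ratios from 1.30 to 2.35. The high ratio of Pmaip1 in WT therefore had no set counterpart in MD43, where the smallest possible ratio was below the median.

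Cdkn1a allowed 2 pairs in each genotype. In WT the counts were either 197 and 352 or 176 and 394, and in MD43 either 306 and 514 or 257 and 612. Its ratio was at least 1.79 in WT and at least 1.68 in MD43, above the median of each genotype. Bbc3 had 163 and 193 reads in WT, a ratio of 1.18 below the median, and in MD43 it allowed 4 pairs with ratios from 1.37 to 2.91. For Sesn1, with 8 possible pairs in WT and 3 in MD43, the ratios ran from 1.03 to 2.85 and from 1.42 to 2.78 and set no useful limit. The products of Trp53, Mdm2, Mdm4, Ccng1 and Bax were too large to be read exactly, and the counts of their single libraries are not known. Since the relative depth of the 2 libraries is not known either, no ratio was turned into a spread between embryos or set against the difference between genotypes.

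**Figure D3:**
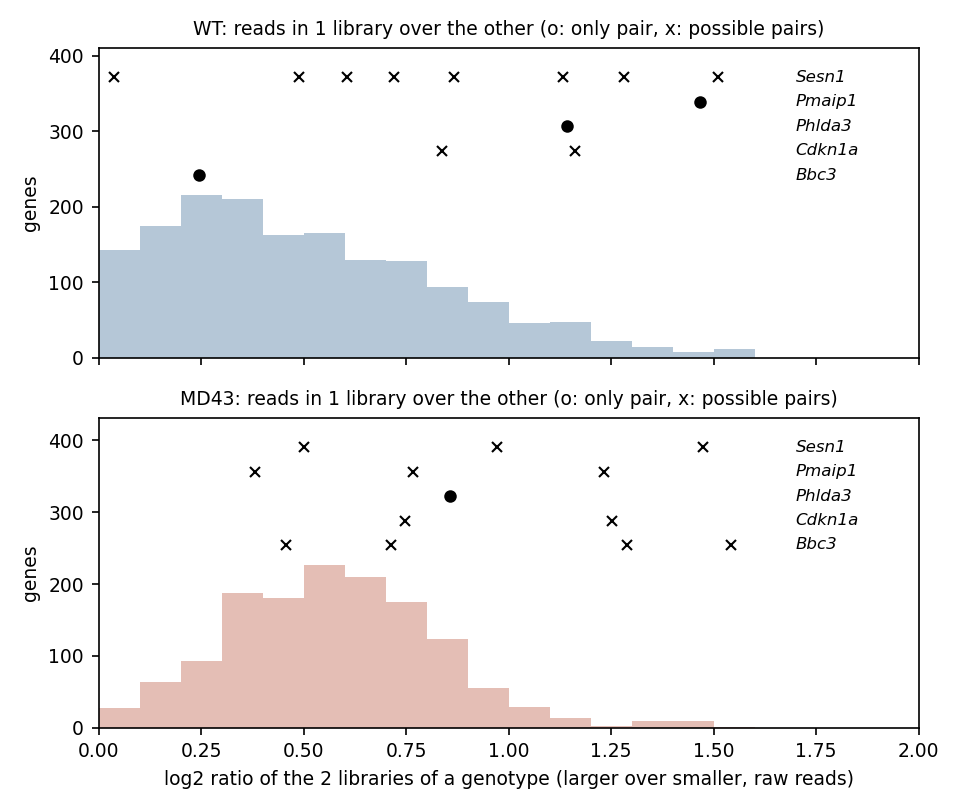
Log2 ratio of the larger to the smaller read count of the 2 libraries of WT (top) and MD43 (bottom). Bars count the genes with a single possible pair within 3-fold (left axis). Above them, in rows, filled circles mark a gene's only pair within 3-fold and crosses mark several possible pairs. Phlda3 and Pmaip1 in WT, at ratios of 2.21 and 2.76, lie in the right tail of the bars.

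The 10 genes were grouped by the sign of their difference and set beside the base composition of their transcripts. The division at 50% GC was chosen after the values were seen. The 5 genes with higher values in MD43 (Trp53, Cdkn1a, Bax, Bbc3 and Phlda3) had GC contents from 53.3% to 65.2%, and the 5 with lower values (Mdm2, Mdm4, Ccng1, Pmaip1 and Sesn1) from 40.8% to 49.8%. The 2 ranges did not overlap, but the counting intervals of Cdkn1a, Bbc3 and Ccng1 included 0, so their signs are not settled. Among the well-covered genes, 63.6% of the 5203 with at least 50% GC were higher in MD43 (median 0.06), against 42.8% of the 5554 with less (median -0.03). With this trend and that of length fitted over all genes and subtracted, the 10 values ran from -0.19 for Mdm4 to 0.12 for Phlda3, with 6 above 0 and 4 below. Bax stood at 0.06 and Pmaip1 at -0.15. The part of base composition in the direction of the single genes was not tested.

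The regulators of p53 were measured next, with 22 of 23 reaching 10 reads in a genotype. Their median log2 difference was 0.02, with 14 higher and 8 lower, and 1 passed 1.5-fold, Trp73 (the gene of the p53 relative p73, which neurons of the early forebrain express). Trp73 had 1.19 RPKM in WT and 0.570 RPKM in MD43, from 106 and 70.5 reads, a log2 difference of -1.07 ± 0.16. Among the 15377 genes, 51.2% were higher and 48.8% lower, and 6.43% passed 1.5-fold on the lower side and 4.24% on the higher side. The largest differences among well-covered regulators were those of Hipk2 (0.39 ± 0.03), a kinase that activates p53 after damage, Daxx (0.29 ± 0.04), an MDM2 partner and histone chaperone, and Ppm1d (0.26 ± 0.06), a phosphatase that ends the p53 response and is a p53 target. Cdkn2a, whose ARF product frees p53 from MDM2, was under the floor of 3 reads in both genotypes, and gives no fold.

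Of 41 further p53 targets, 38 reached 10 reads in a genotype. Their median was -0.04, with 17 higher and 21 lower, and 3 passed 1.5-fold, 1 higher and 2 lower. In the cell cycle group all 10 stayed under 1.5-fold (4 higher, 6 lower). Gtse1, a G2 phase protein that binds p53, had the largest difference at 0.39 ± 0.04, and the immediate response genes Plk2 (-0.37 ± 0.05) and Btg2 (-0.30 ± 0.05) were on the lower side. In the cell death group 9 of 12 had higher values, with a median of 0.12, where 51.2% of the 15377 genes were higher. Aen, an apoptosis nuclease, had 11.6 RPKM in WT and 15.7 RPKM in MD43, a log2 difference of 0.43 ± 0.04. Siva1, a death-promoting gene, had 0.20 ± 0.03, and Triap1, an inhibitor of apoptosis, had 0.18 ± 0.06. Steap3, an iron reductase that red cell precursors use to take up iron, had 22.9 reads in WT and 76.1 in MD43, a log2 difference of 1.26 ± 0.24 that fell to 0.35 with a pseudocount of 1 RPKM.

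The group of repair and metabolism targets had 12 of 16 below 0 and a median of -0.08, where 48.8% of the 15377 genes were lower. Ddit4, which encodes the mTORC1 inhibitor REDD1 and also answers to hypoxia and to hormones, had 75.9 RPKM in WT and 31.8 RPKM in MD43, from 2139 and 1244 reads. Its log2 difference of -1.26 ± 0.04, or 2.39-fold lower, was the lowest value of the 38. Sesn2, a relative of Sesn1 that also answers to amino acid shortage, had 15.9 RPKM in WT and 9.65 RPKM in MD43, a log2 difference of -0.72 ± 0.05, or 1.65-fold lower. Tigar, a brake on glycolysis, was on the other side at 0.45 ± 0.09. Of the 15377 genes, 6.43% passed 1.5-fold on the lower side and 4.24% on the higher side. Among the well-covered genes, to which Ddit4, Sesn2 and Tigar belong, the shares were 1.78% and 0.576%.

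The gene families of the 10 were compared as well. Ccng2, the relative of Ccng1 that is not a classical p53 target, had 13.5 RPKM in WT and 8.35 RPKM in MD43, a log2 difference of -0.69 ± 0.04, or 1.62-fold lower, whereas Ccng1 differed by -0.04. The CDK inhibitors Cdkn1c (-0.31 ± 0.02) and Cdkn1b (-0.26 ± 0.04) had lower values, and Cdkn1c was far more abundant than Cdkn1a, at 103 RPKM against 4.62 in WT. Phlda2, an imprinted relative of Phlda3, was covered by few reads (7.55 in WT, 18.3 in MD43), with a log2 difference of 0.80 ± 0.44, within its counting error. The 8 of 9 relatives that reached 10 reads had a median of -0.17, 1 higher and 7 lower, and all 9 had a median of -0.26. Of the 15377 genes, 48.8% were lower. Of the 18 other BCL2 family genes and caspases none passed 1.5-fold and the median was 0.03 (11 higher, 7 lower), with Casp8, an initiator caspase, at 0.38 ± 0.11, Bcl2, the survival gene, at -0.25 ± 0.07, and Bok, a relative of Bax, at 0.19 ± 0.06.

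Genes that p53 lowers through p21 and the DREAM repressor complex, all of them mitotic or late cell cycle genes, differed least of the lists in range. The median of the 15 genes was 0.04, their range was -0.08 to 0.22, and none passed 1.5-fold. Of these, 12 were higher in MD43 and 3 lower, where 52.8% of the well-covered genes were higher. Plk1 (0.22 ± 0.03), Cdc20 (0.19 ± 0.02) and Foxm1 (0.13 ± 0.02) had the largest differences.

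**Figure D4:**
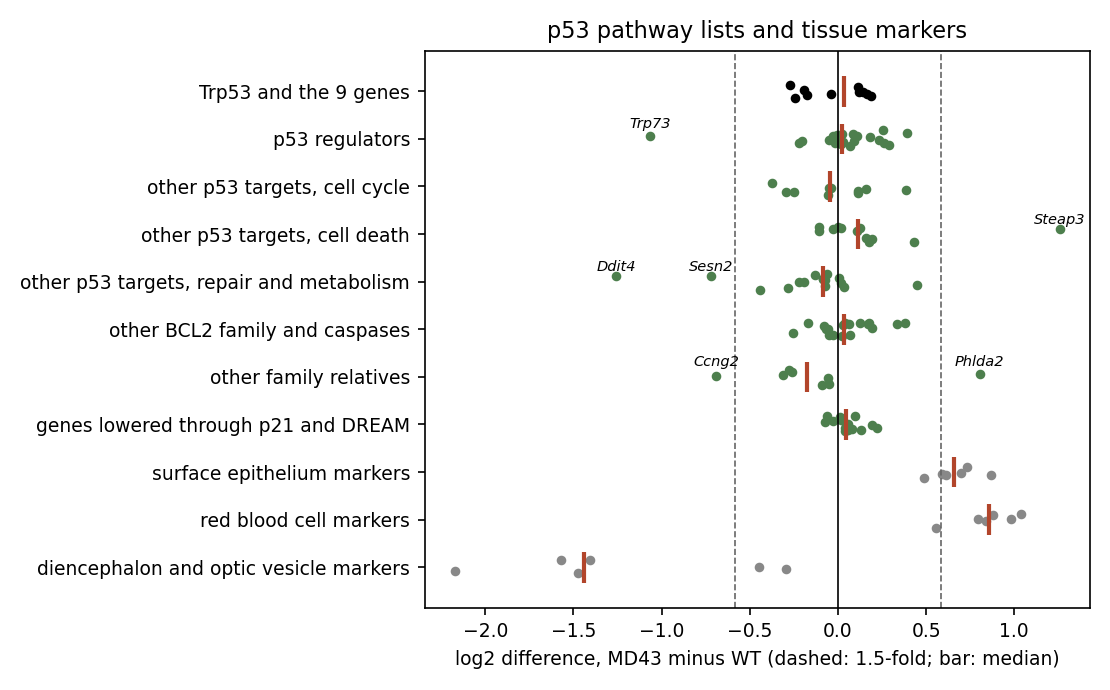
Log2 difference between MD43 and WT (horizontal axis) of every gene with at least 10 reads in a genotype, by list, with the list's median as a red bar and 1.5-fold as dashed lines. The 10 genes lie between -0.27 and 0.19, Ddit4, Sesn2, Trp73 and Ccng2 lie beyond 1.5-fold lower, and Steap3 and Phlda2 beyond 1.5-fold higher.

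Markers of surface epithelium, red blood cells, and diencephalon and optic vesicle differed between the genotypes by more than the 10 genes did. Their list medians were 0.66, 0.86 and -1.44. The surface epithelium markers were higher in MD43 for 6 of 6 genes (summed level 113 RPKM in WT and 179 in MD43), and so were the red blood cell markers for 6 of the 6 found (3057 and 5811 RPKM). The diencephalon and optic vesicle markers were lower for 6 of 6, with a summed level of 26.7 RPKM in WT and 0.673 times that in MD43. Their median rests on genes of low level. Rax, Otp and Sim1 were under 1 RPKM in both genotypes, with 24.5, 15.9 and 14.7 reads in MD43. A pseudocount of 1 RPKM brought them to -0.64, -0.48 and -0.17, and Dbx1 from -1.40 to -0.98. The facial mesenchyme markers were all present, with a sum of 165 RPKM in WT and 162 in MD43 and 4 of 9 higher. Neural progenitor markers summed to 213 and 207 RPKM, endothelium markers to 6.97 and 6.58 RPKM and macrophage markers to 3.03 and 2.82 RPKM. Most of the macrophage sum came from Csf1r, at 2.49 RPKM in WT and 2.43 in MD43 (-0.03 ± 0.09). The 3 macrophage markers that reached 10 reads in a genotype were all lower, with a median of -0.57, also beyond the range of the 10 genes. That median rests on few reads, with Cx3cr1 at -0.57 ± 0.25 and Ptprc at -0.70 ± 0.46. List medians were -0.17 for facial mesenchyme, -0.13 for neural progenitors and -0.09 for endothelium. No marker found was without reads in both genotypes. The part of these tissues in the values of Steap3, Trp73, Ddit4 or the 10 genes was not tested.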

How the data were processed

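RNA was sequenced from the FNPs of 4 embryos, 2 per genotype (stranded poly(A) libraries from 100 ng of RNA). Per the labels and methods, the authors trimmed reads with Trim Galore 0.4.4, mapped them with HISAT2 2.0.5 to GRCm38.p6 and quantified them in SeqMonk. The deposited values are log2 RPKM, 1 column per genotype, without the sex chromosomes. The use of strand in counting is not stated. Columns with the authors' FDR, fold change and mean were not used.

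Rows were joined to GENCODE M21 on symbol and coordinates (33101 matched). The value of genes without reads fixed the scale (a library without reads counts as 0.9 reads), and each value then gave the product of the 2 libraries' reads. Of products from 10000 to 300000, 99.4% (MD43) and 99.3% (WT) were whole within 0.1. Of these, 99.6% and 99.5% split into a pair within 3-fold, against 24.8% and 24.2% of the next whole numbers. In simulated libraries of 33101 genes, all products in this range were recovered (100%), and 98.2% (MD43) and 99.2% (WT) of single pairs were the true counts. These shares cover all single pairs, and those with ratios near 3 were not taken apart. Intervals and floors cover counting error only.

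The 10 genes and all lists were chosen with earlier results of these data known. Named genes were the 10, Smchd1, the 3 largest differences per list among well-covered genes (100 reads or more in each genotype), list genes past 1.5-fold with at least 10 reads in one, and genes that overlap the 10. The 50% GC division and the recovery of library pairs were chosen after values were seen. Python 3.11.15, pandas 2.3.3 and numpy 2.4.6 were used.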

Additional observations from a re-analysis of the deposited data

How the results depend on the processing

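No alternative brought any of the 10 genes to 1.5-fold, and none reached 2-fold. The alternatives were a pseudocount of 0.1 or 1 RPKM, subtraction of the median gene, and removal of a fitted trend on GC content and length. Of 40 values of the 10 genes, 37 stayed within the 95% counting interval. The other 3 came from the GC content and length fit, which moved Mdm4 to -0.19, Bax to 0.06 and Ccng1 to 0.07, the last with a change of sign. It also moved Cdkn1b to -0.18, and accounted for 1.41% of the variance over the 15377 genes. The medians of the 7 pathway lists kept their sign under each of these and with all listed genes kept, and moved by less than the counting interval of a typical member. A pseudocount of 1 RPKM brought Steap3 to 0.35 and Trp73 to -0.48, both under 1.5-fold, since it exceeds or nears their level. Allowing ratios up to 4 between libraries, added after the data were seen, left the smallest possible ratios of the 5 genes as they were. It raised the median ratio over genes with a single pair to 1.44 in WT and 1.52 in MD43.

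No paired analysis was possible because both libraries of a genotype were merged. For the same reason fits without a replicate and tests on counts were not run, and whether 1 embryo decides the values of Ddit4, Sesn2, Ccng2 or Trp73 is not known.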
